A study of Mus musculus with 3 samples.

Results

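Skeletal muscle RNA of an exercise control group was set against that of a control group in mice, which takes 2 of the 3 libraries of the study. Every library came from mice of the outbred ICR stock on postnatal day 42, and the study's title names fatigue and a leaf extract of the dwarf bamboo Sasa quelpaertensis. The control (NC) carries no exercise or extract in its label, the exercise control (EC) names exercise without the extract, and the remaining library (ES) names exercise with SQH. That SQH library does not enter the comparison, and its level is printed last, for orientation. Which muscle was taken, how the mice exercised, how long before dissection, their sex, the SQH dose and how many animals a library holds are not in the labels.

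The comparison covers every gene row of the deposited tables whose linear value averaged at least 66.5 across the 3 libraries, the median of the rows above 0 in any library. This left 7857 of 24481 rows, and it used only the level, not the difference. Ttf2 and Wdr73, both at a mean of 66.47, fell just outside this minimum, and Il15 and Zdhhc17, both at 66.53, just inside. Levels below are the deposited log2 values, whose scale is not stated. They were read as a read count adjusted for library size, from the spacing of small values. A difference is the exercise control level minus the control level. With 1 library a side there is no replicate error and no p-value, and "called higher" or "called lower" means only that a row differed by at least 1 (2-fold). The ± value beside a difference is the standard error of counting reads. It covers neither animals nor library preparation.

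By this rule 232 rows (2.95% of those tested) were called higher and 419 rows (5.33%) lower, 8.29% in either direction. After centring on the median of the tested rows the calls were 293 and 348, so that higher rows were 45.7% of all calls in place of 35.6%. The median difference of all tested rows was -0.045, and 46.3% of them lay above 0. Of the called rows 84 differed by at least 2 (4-fold), 16 of them higher and 68 lower. At 3 or more (8-fold), 3 were higher and 28 lower. Calls were most frequent at low levels, at 13.6% of rows in the lowest of 4 equal groups by level and 6.16% in the highest, where the median counting error was 0.06. Approximate depth, in M reads, was 10.78 for control, 8.12 for exercise control and 12.39 for SQH. Skeletal actin (Acta1) stood at 18.56, 18.34 and 19.01 in that order and muscle creatine kinase (Ckm) at 16.59, 17.24 and 17.08, so all 3 libraries carried the defining transcripts of skeletal muscle.

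**Figure D1:**
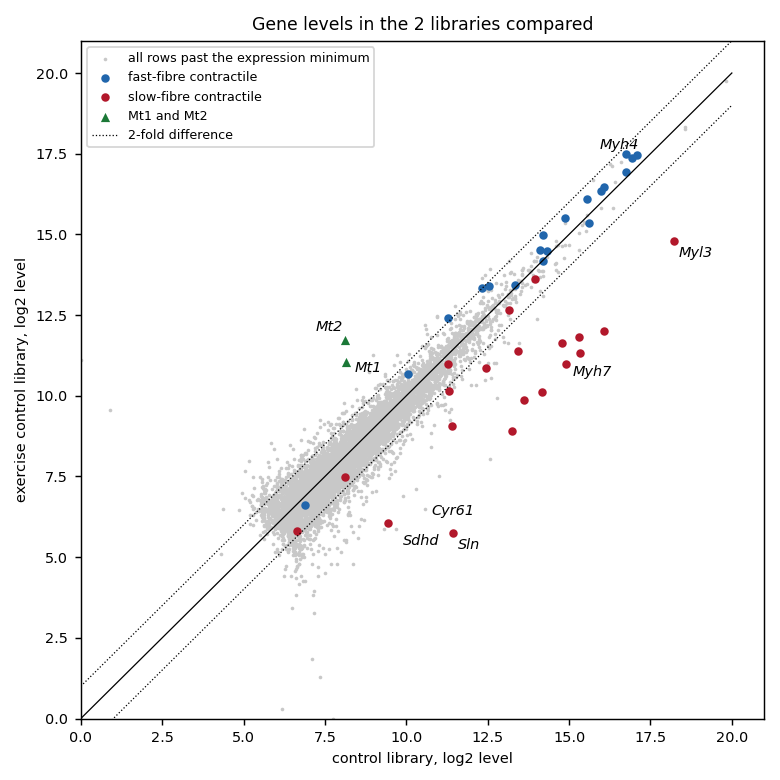
Log2 level of each of the 7857 tested rows in control muscle (x axis) and in the exercise control (y axis), with equal levels on the solid line and 2-fold differences on the dotted lines. Slow-fibre genes (red) lie far below the line up to the highest levels, fast-fibre genes (blue) close to it and mostly above, and Mt1 and Mt2 (green) well above it.

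Limb muscle mixes slow fibres, which contract slowly, resist fatigue and burn fat and glucose in mitochondria, with fast fibres, which contract quickly and draw more on glycogen and glycolysis. Most parts of the contractile machine exist as a slow and a fast version encoded by separate genes, so the mix of a muscle can be read from pairs of transcripts. Slow versions include the myosin heavy chain Myh7, the light chains Myl2 and Myl3, the troponins Tnni1, Tnnt1 and Tnnc1, and the calcium pump Atp2a2. Fibre types respond to training, nerve activity and loading, and muscles of the limb differ widely in their mix.

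The slow version of almost every contractile part was lower in the exercise control. Of 20 slow-fibre genes, all of which passed the minimum, 15 were called lower and none higher, all 20 lay below 0, and the list median was -3.25. Myl3, the slow and ventricular essential light chain, was the fourth most abundant row of the control at 18.23, against 14.81 in the exercise control and 17.91 in the SQH library. It alone took 3.34% of the summed linear level of the control (ribosomal precursor RNA left out; reads of a 3' library do not grow with transcript length) but 0.327% of that of the exercise control. The whole slow list took 6.64% and 0.846%, and 5.53% in the SQH library. The exercise control thus stood apart from both other libraries, and in a bulk sample fewer slow fibres and less of these RNAs per fibre cannot be told apart.

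The same shift appeared within each library when a slow gene was divided by its fast partner, a measure that no scaling of libraries can alter. The log2 ratio of the slow troponin T gene Tnnt1 to the fast Tnnt3 was -0.01 in control muscle, -4.45 in the exercise control and -0.10 in the SQH library. For the inhibitory troponins Tnni1 and Tnni2 it was -1.82, -6.25 and -2.14. The calcium-binding troponins Tnnc1 and Tnnc2 gave -1.45, -5.10 and -1.81. These troponin ratios shifted by between -4.44 and -3.65 from control to exercise control. The regulatory light chain pair Myl2 and Mylpf shifted by -4.36, the tropomyosin pair Tpm3 and Tpm1 by -4.38 and the essential light chain pair Myl3 and Myl1 by -3.84. The calcium pumps Atp2a2 and Atp2a1, which refill the sarcoplasmic reticulum, shifted by -3.85. Shifts were smaller for the calcium stores Casq2 and Casq1 (-2.43 ± 0.08) and for the calcineurin-binding Z-disc proteins Myoz2 and Myoz1 (-3.06 ± 0.04). They were smallest for the myosin-binding proteins Mybpc1 and Mybpc2 (-1.23 ± 0.03) and the alpha-actinins Actn2 and Actn3 (-0.46 ± 0.03).

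**Figure D2:**
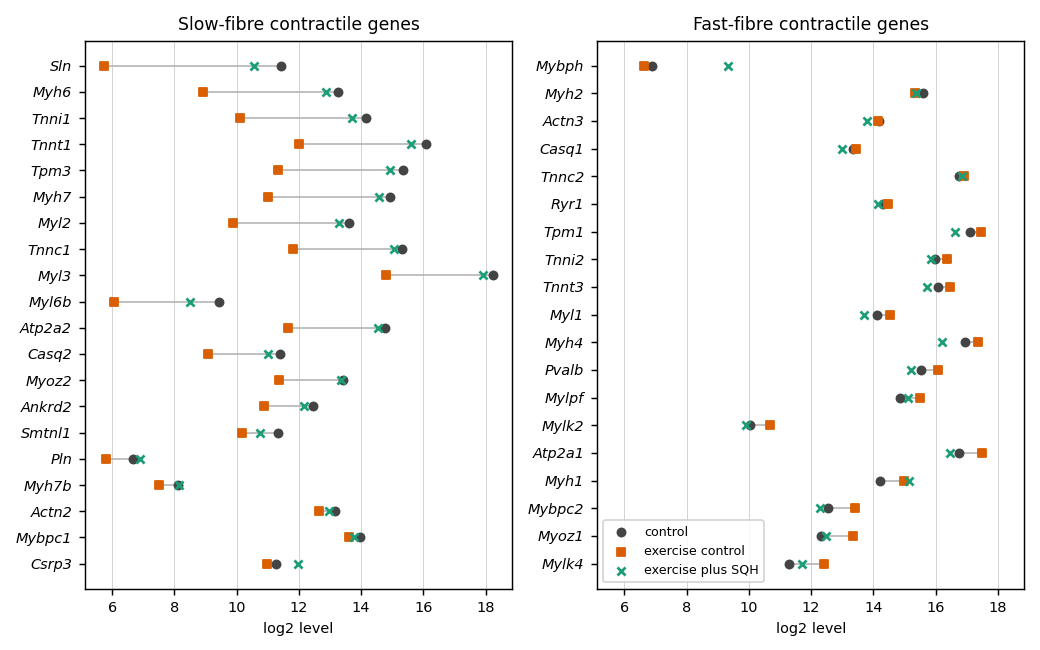
Log2 level of the 20 slow-fibre genes (left) and the 19 fast-fibre genes (right) in each of the 3 libraries, with a line joining control and exercise control. In the left panel the exercise control (squares) lies to the left of the control for every gene, farthest for Sln (-5.69), and the SQH library (crosses) lies near the control for most genes. In the right panel the exercise control lies to the right for 16 of 19 genes, by 1.13 at most.

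The adult myosin heavy chains showed the same pattern in their composition. Myh7 made up 13.7% of the summed linear level of Myh7, Myh2, Myh1 and Myh4 in control muscle (exact 95% binomial interval 13.6% to 13.9%, counting error only). In the exercise control its share was 0.84% (0.801% to 0.881%), and in the SQH library 13.7%. Myh4, the gene of the fastest type IIB fibres, took 55.7%, 68.7% and 42.2%. Myh2, of the fast oxidative type IIA fibres, took 22.2%, 17.1% and 23.7%. Myh1, of the intermediate type IIX fibres, took 8.38%, 13.3% and 20.3%. The exercise control therefore had the smallest share of Myh7 and Myh2 and the largest of Myh4, while for Myh1 the control was lowest. These genes are close relatives, and how reads shared between them were assigned is not given in the sources used here.

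Not every gene used by slow fibres was lower to the same degree. The 5 slow-list members not called were Pln, Myh7b, Actn2, Mybpc1 and Csrp3. Mybpc1, slow myosin-binding protein C, lay at 13.95 in control muscle and 13.61 in the exercise control (-0.35 ± 0.02). Actn2, the alpha-actinin present in all fibres, lay at 13.14 and 12.65 (-0.49 ± 0.02). Csrp3, a Z-disc protein responsive to load, lay at 11.28 and 10.98 (-0.29 ± 0.04). Myh7b, a relative of Myh7 whose transcript makes little protein, lay at 8.11 and 7.50 (-0.62 ± 0.14). Pln, which encodes phospholamban, an inhibitor of the slow calcium pump, lay at 6.65 and 5.80 (-0.85 ± 0.25). Members just past the threshold were Smtnl1 (-1.17 ± 0.05), a smoothelin-like protein, and the stretch-responsive Ankrd2 (-1.58 ± 0.04). At the other end stood Sln, encoding sarcolipin, with 11.43, 5.74 and 10.56 in control, exercise control and SQH library.

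Myl3 was the most abundant slow-fibre gene and Myh7 the slow member of the adult myosins, and their upstream sequences are shown with the M-CAT core, CATTCC, known as the binding site of TEAD factors in muscle promoters. Capitals mark CATTCC or its reverse complement GGAATG on the printed strand. Each window is the 250 bases before the RefSeq start in GRCm38, read on the gene's strand. The Myl3 window is chr9:110763428-110763677 on the plus strand and the Myh7 window chr14:54994627-54994876 on the minus strand, at the more upstream of its 2 listed starts.
Myl3: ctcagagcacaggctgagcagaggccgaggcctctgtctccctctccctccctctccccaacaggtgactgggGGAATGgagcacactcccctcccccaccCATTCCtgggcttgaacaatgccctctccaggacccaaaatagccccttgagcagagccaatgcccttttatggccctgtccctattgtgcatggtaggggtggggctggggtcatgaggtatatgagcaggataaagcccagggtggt
Myh7: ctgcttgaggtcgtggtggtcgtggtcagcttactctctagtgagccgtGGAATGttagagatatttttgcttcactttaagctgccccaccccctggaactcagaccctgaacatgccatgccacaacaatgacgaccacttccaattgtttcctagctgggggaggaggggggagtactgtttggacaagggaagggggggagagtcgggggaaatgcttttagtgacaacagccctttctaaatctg
Myl3 has 2 matches, whose leftmost bases lie 177 and 149 bases before the start, and Myh7 has 1, at 201. The window of the other listed Myh7 start, chr14:54994550-54994799, has none. Of 18 slow-fibre genes with a listed promoter, 4 had a match (22.2%), the others being Tnnc1 and Myh6, against 6 of 14 fast-fibre genes (42.9%). Of all 32851 listed promoters 12.6% had a match. A list gene counted if any of its listed promoters matched, whereas the 12.6% counts single promoters, so the list shares are not directly comparable with it. A match is a string of letters and says nothing of binding. Tead1, which encodes a TEAD factor, lay at 12.20 in control muscle and 11.61 in the exercise control (-0.59 ± 0.04).

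The fast-fibre genes stood slightly above the control. Of 19 genes 16 lay above 0, the median was 0.42 and 2 were called higher, none lower. The called pair were Mylk4, a kinase gene of the myosin light chain kinase family (11.28 in control muscle, 12.41 in the exercise control, 11.70 in the SQH library; 1.13 ± 0.04), and Myoz1 (12.33, 13.34 and 12.46; 1.01 ± 0.03). Mybpc2, fast myosin-binding protein C, came next at 12.53, 13.41 and 12.29 (0.88 ± 0.02). The fast calcium pump gene Atp2a1 took 1.21% of the summed linear level in control muscle and 2.08% in the exercise control (16.76 and 17.48; 0.72 ± 0.01). It shares exonic bases with Rabep2, listed nearly as high (16.32 and 17.13), so the reads of this pair cannot be assigned with certainty. Myh2 (-0.26 ± 0.01) and Mybph (-0.26 ± 0.20) lay below 0. The fast list as a whole took 9.25% of the summed level in control muscle and 12.8% in the exercise control.

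Other parts of excitation and contraction were mostly level. Of 24 genes of calcium release and storage, only Casq2 was called (lower), and the median was 0.00. Ryr1, the calcium release channel, lay at 14.31 and 14.48, its voltage sensor Cacna1s at 12.23 and 12.15, and Stim1, the sensor of an empty store, at 11.53 and 10.59 (-0.94 ± 0.05). Among 13 ion pumps and channels of the fibre membrane (median 0.15) 2 were called higher and 1 lower. The inward rectifier channel Kcnj2, which sets the resting potential, was lower (9.50 and 7.72; -1.77 ± 0.12), with 10.14 in the SQH library. The fast-activating potassium channel gene Kcnc4 was higher (7.83 and 9.11; 1.29 ± 0.11). The beta subunits of the sodium pump moved apart, with Atp1b2 higher (7.97 and 9.09; 1.12 ± 0.11) and Atp1b1 at 12.56 and 11.89 (-0.67 ± 0.03). The log2 ratio of Atp1b1 to Atp1b2 was therefore 4.59 in control muscle, 2.80 in the exercise control and 4.04 in the SQH library.

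Of 40 cytoskeleton and Z-disc genes (median -0.14), 2 were called higher and 7 lower. Myom3, an M-band protein (12.42 in control muscle, 10.48 in the exercise control; -1.94 ± 0.05), and Lmod2, which caps and lengthens actin filaments (12.70 and 11.00; -1.70 ± 0.04), were lower. Their relatives were not called: Myom1, the M-band protein of all fibres, lay at 14.66 and 14.68, and Myom2 at 12.89 and 13.46 (0.56 ± 0.02). Lmod3 differed in the same direction as Lmod2, at 11.17 and 10.33 (-0.84 ± 0.05), short of 2-fold. Also lower were Pdlim5 (-1.17 ± 0.04), a scaffold of the Z-disc, and the actin-binding synaptopodin relatives Synpo2l (-1.13 ± 0.14) and Synpo2 (-1.11 ± 0.11). The giant spring protein gene Ttn lay at 18.56 and 18.27. Of the embryonic and regeneration genes 7 were tested and 1 was called, the cardiac actin gene Actc1, with 11.00 in control muscle, 7.51 in the exercise control and 8.61 in the SQH library (-3.48 ± 0.12). The embryonic myosin gene Myh3 lay at 8.03 and 7.79, and the perinatal Myh8 at 11.52 and 11.93.

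**Figure D3:**
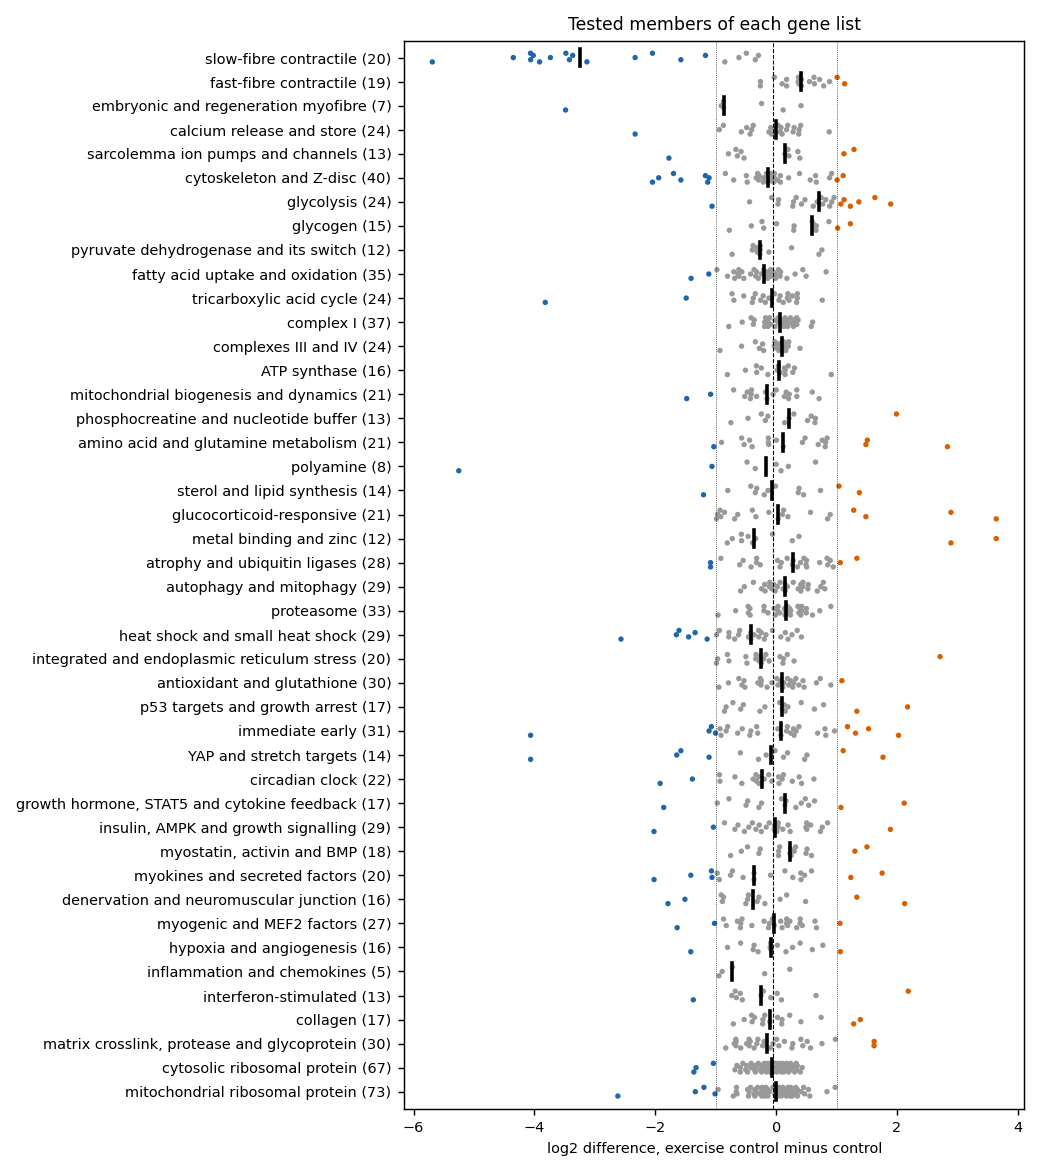
Log2 difference (exercise control minus control) of each tested member of the gene lists, with the number of tested members in parentheses. Orange points are called higher, blue points lower, grey points not called; the short black line is the list median, the dashed line the median of all tested rows (-0.045) and the dotted lines 2-fold differences. The slow-fibre list lies far to the left of all others, and the medians of glycolysis and glycogen lie to the right, with glycogen genes on both sides of 0.

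Enzymes of glycolysis, which splits glucose to pyruvate and lactate, were higher as a group. Of 24 tested genes 21 lay above 0, 6 were called higher and 1 lower, and the median was 0.71. Together these genes took 1.62% of the summed linear level in control muscle, 2.89% in the exercise control and 1.72% in the SQH library. The backbone of the pathway was elevated at many steps without reaching 2-fold. Aldolase A (Aldoa), the most abundant member, lay at 16.26, 17.18 and 16.28 in control, exercise control and SQH library (0.92 ± 0.01). Muscle phosphofructokinase (Pfkm) lay at 11.65, 12.61 and 12.04 (0.96 ± 0.03), phosphoglycerate kinase (Pgk1) at 9.58, 10.47 and 10.16 (0.89 ± 0.07), and enolase 3 (Eno3) at 13.22, 13.83 and 13.36 (0.61 ± 0.02). The entry steps differed little: the glucose transporter gene Slc2a4 lay at 12.70 and 12.73, and hexokinase 2 (Hk2) at 13.03 and 13.31.

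The called members included enzymes on both sides of the phosphofructokinase step and transport of lactate. Pfkfb3 and Pfkfb1 make the activator of phosphofructokinase. Pfkfb3 was higher at 10.73 against 8.84 (1.90 ± 0.08), with 11.24 in the SQH library, and Pfkfb1 at 9.01 against 7.78 (1.23 ± 0.12), with 8.10 there. Fbp2, the muscle fructose bisphosphatase that runs against phosphofructokinase, was higher as well (7.48, 9.11 and 6.87; 1.63 ± 0.12). Pfkfb2, the heart isoform, lay at 6.52 and 6.08 (-0.44 ± 0.24). The platelet phosphofructokinase gene Pfkp (6.26 and 7.39; 1.12 ± 0.20) shares 748 exonic bases with Pitrm1 on the other strand, which lay at 7.56 and 7.54, and its call ended with a pseudocount of 16 (0.98). Gpd1, the cytosolic enzyme of the glycerol phosphate shuttle, was higher (10.47 and 11.54; 1.07 ± 0.05), and its mitochondrial partner Gpd2 differed by 0.82 ± 0.06. For lactate, the exporter gene Slc16a3 was higher (12.57 and 13.94, with 12.18 in the SQH library; 1.37 ± 0.02) while the importer of oxidative fibres, Slc16a1, lay at 10.23 and 10.15. The log2 ratio of Ldhb to Ldha, whose products favour lactate use and lactate formation, was -2.22 in control muscle, -4.02 in the exercise control and -1.79 in the SQH library. The call of Ldhb itself (-1.06) ended with centring (-0.99) and quantile normalization (-0.98).

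Glycogen genes leaned the same way but not all together, with 15 tested, 11 above 0, 2 called higher and none lower, and a median of 0.60. Glycogen phosphorylase (Pygm) was higher (13.15 in control muscle, 14.17 in the exercise control, 13.43 in the SQH library; 1.02 ± 0.02), as was the phosphorylase kinase subunit Phkb (9.81, 11.03 and 9.59; 1.23 ± 0.06). Its partner subunit Phka1 lay at 11.38 and 12.25 (0.87 ± 0.04). Of the genes for synthesis and storage, Gys1, glycogen synthase, lay at 13.85 in both libraries, Ugp2, which makes the glucose donor, at 11.54 and 11.84 (0.30 ± 0.04), the primer protein Gyg at 11.01 and 10.60 (-0.41 ± 0.05), and the phosphatase targeting subunits that promote storage on opposite sides of 0, Ppp1r3a at 10.18 and 10.79 (0.61 ± 0.06) and Ppp1r3c at 12.10 and 11.33 (-0.78 ± 0.04).

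**Figure D4:**
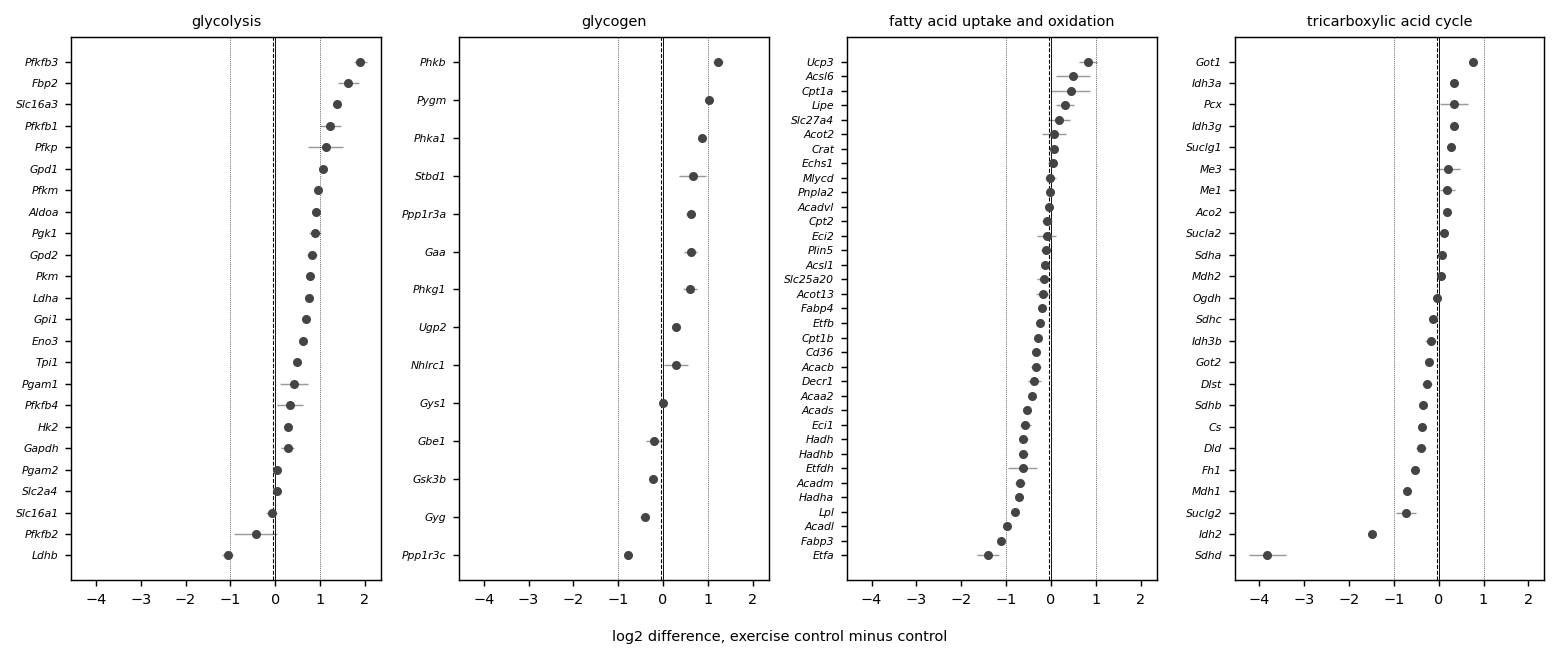
Log2 difference of tested genes of glycolysis, glycogen metabolism (1 member not shown), fatty acid use and the tricarboxylic acid cycle (bars: 95% counting intervals; solid line 0, dashed line the median of all tested rows, dotted lines 2-fold). Glycolysis lies mainly to the right, fatty acid genes mainly to the left, and the tricarboxylic acid cycle on both sides with Sdhd at -3.82 and Idh2 at -1.49.

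Of 35 tested genes of fatty acid uptake and oxidation, 27 lay below 0 and 8 above, with a median of -0.21. This is less than 0.3 from the median of all tested rows (-0.045), so the list is not described as lower as a group. In it 2 genes were called lower and none higher, beside 5.33% of all tested rows called lower. The mitochondrial spiral itself showed differences of -0.98 to -0.54 for Acadl (12.52 and 11.54), Hadha (12.22 and 11.52), Acadm (10.96 and 10.28), Hadhb (11.18 and 10.56) and Acads (11.28 and 10.74), none of which was called. Acadvl, the enzyme for the longest chains, lay at 10.97 and 10.92. Cpt1b, which admits fatty acids to the mitochondrion, lay at 12.43 and 12.14 (-0.30 ± 0.03). Lpl, which releases fatty acids from lipoproteins, lay at 14.65 and 13.85 (-0.81 ± 0.02). The uncoupling protein gene Ucp3 stood at the opposite end of the list (8.44 and 9.27; 0.83 ± 0.10). Etfa, which takes electrons from the acyl dehydrogenases, was called lower (9.12 and 7.72, with 9.49 in the SQH library), and its partner subunit Etfb lay at 12.37 and 12.12 (-0.24 ± 0.03).

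Pyruvate dehydrogenase, the gate between glycolysis and the mitochondrion, had no called gene among 12 tested (median -0.27). Its subunits Pdha1, Pdhb, Dlat and Pdhx lay between -0.31 and -0.26, and its activating phosphatase Pdp1 at 10.23 and 10.99 (0.76 ± 0.05). Pdk4, the kinase that shuts the complex during fasting and endurance work, lay at 11.42 and 11.04 in control and exercise control but at 13.00 in the SQH library. In the tricarboxylic acid cycle (24 tested, median -0.08, 2 called lower) the mitochondrial NADP-linked Idh2 was lower (13.13 and 11.64; -1.49 ± 0.03), while the 3 genes of the NAD-linked enzyme lay at 0.35 (Idh3a), 0.34 (Idh3g) and -0.18 (Idh3b). Sdhd, the small membrane anchor of succinate dehydrogenase, stood at 9.69, 5.87 and 10.60, whereas Sdha (11.89 and 11.96), Sdhb (12.57 and 12.23) and Sdhc (11.50 and 11.38) were not called.

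The respiratory chain did not share the slow-fibre shift. Complex I (37 genes, median 0.07), complexes III and IV (24, 0.09) and ATP synthase (16, 0.05) had no called member. Their extremes were Cox7c (11.56 and 10.63; -0.93 ± 0.05) and Atp5g1 (10.62 and 11.53; 0.91 ± 0.05). Of the regulators of mitochondrial biogenesis and dynamics (21 tested, median -0.15), the estrogen-related receptor genes Esrrb (6.73 and 5.25; -1.48 ± 0.29) and Esrrg (8.32 and 7.24; -1.08 ± 0.15) were called lower. Their relative Esrra lay at 9.49 and 9.08, Perm1, a muscle partner of these receptors, at 11.74 and 11.33, and the coactivator gene Ppargc1a at 10.75, 11.35 and 12.41 (0.60 ± 0.05). Myoglobin (Mb), the oxygen store of oxidative fibres, lay at 16.35 in control muscle, 15.83 in the exercise control and 16.15 in the SQH library (-0.53 ± 0.01).

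In the phosphocreatine and nucleotide buffer list (13 tested, median 0.21) only Carns1 was called. Carns1 makes carnosine, a dipeptide buffer most plentiful in fast fibres, and stood at 5.49, 7.48 and 5.67 (1.99 ± 0.24). The creatine transporter gene Slc6a8 lay at 10.41 and 9.66 (-0.75 ± 0.07). Amino acid genes (21 tested, median 0.12) had 3 called higher and 1 lower. These were the carrier genes Slc25a29 (5.16, 7.99 and 6.32; 2.83 ± 0.25) and Slc43a1 (7.05, 8.56 and 7.15; 1.51 ± 0.15), which exports branched-chain and other large neutral amino acids, glutamine synthetase (Glul; 10.60, 12.08 and 11.80; 1.48 ± 0.04), and the arginase gene Arg2 (8.61, 7.58 and 8.27; -1.03 ± 0.13). The Arg2 call ended with centring (-0.96), quantile normalization (-0.98) and a pseudocount of 16 (-0.97). Aminotransferases lay above 0, with Got1 at 12.74 and 13.51 (0.76 ± 0.02) and Gpt2 at 9.10 and 9.92 (0.82 ± 0.08). Of 14 genes of sterol and lipid synthesis (median -0.07), 2 were called higher and 1 lower. The desaturase gene Scd2 was higher (8.06 and 9.10; 1.04 ± 0.11), and Thrsp, a lipogenic regulator, was lower (9.01 and 7.80; -1.20 ± 0.12). A pseudocount of 16 left Scd2 at 0.996, short of a call. Of 8 polyamine genes Amd1, which supplies the aminopropyl donor, was lower (12.60 and 11.54, with 10.69 in the SQH library; -1.06 ± 0.03), a call that ended with centring (-0.99) and quantile normalization (-0.97). Paox, a polyamine oxidase, was lower (7.11, 1.86 and 7.17; -5.25 ± 0.83), by -2.97 with a pseudocount of 16.

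The metallothionein genes were the farthest above the control of all called rows with a counting error of at most 0.3. Metallothioneins are small cysteine-rich proteins that bind zinc and copper, and cells make them when free zinc or glucocorticoid rises. Mt2 stood at 8.10 in control muscle, 11.74 in the exercise control and 11.70 in the SQH library (3.64 ± 0.09). Mt1 stood at 8.16, 11.05 and 10.82 (2.89 ± 0.09). The control was thus low and the other libraries high for both genes. The log2 ratio of Mt1 to Mt2 was 0.06 in control muscle, -0.69 in the exercise control and -0.88 in the SQH library. Their upstream windows are shown with a letter pattern, TGCNCNC. It is looser than the core of the metal response element, the site of the zinc sensor MTF1, which takes only A or G at the first N. Capitals mark the pattern on either strand, each window is the 250 bases before the RefSeq start in GRCm38, and both lie on the plus strand, Mt2 at chr8:94172368-94172617 and Mt1 at chr8:94178839-94179088.
Mt2: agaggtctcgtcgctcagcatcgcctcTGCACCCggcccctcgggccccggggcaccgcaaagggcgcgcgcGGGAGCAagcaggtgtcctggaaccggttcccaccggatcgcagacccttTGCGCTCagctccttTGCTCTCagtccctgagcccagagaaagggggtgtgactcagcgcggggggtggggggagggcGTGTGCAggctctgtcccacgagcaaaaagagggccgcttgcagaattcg
Mt1: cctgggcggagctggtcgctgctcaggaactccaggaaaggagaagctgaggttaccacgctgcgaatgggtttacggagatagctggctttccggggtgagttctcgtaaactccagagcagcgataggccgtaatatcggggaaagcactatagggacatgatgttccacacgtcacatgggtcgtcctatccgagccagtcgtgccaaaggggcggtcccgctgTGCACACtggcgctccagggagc
Mt2 has 5 matches to the loose pattern in this window, a number reached by 0.34% of the 32851 listed promoters, and Mt1 has 1, as 44.4% of promoters have at least 1. The Mt2 matches TGCTCTC and GGGAGCA have T at the first N, on the strand that matches, and so are not the core. Bases after the listed start were not searched.

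No other gene of the metal list was called. Of 12 tested genes (median -0.37) 8 lay below 0. Slc30a1, the zinc exporter of the cell membrane and itself a known target of MTF1, lay at 7.87 in control muscle, 7.41 in the exercise control and 7.75 in the SQH library (-0.47 ± 0.15). Mtf1 lay at 8.86 and 8.79. The vesicular zinc transporter gene Slc30a2 lay at 9.13 and 8.32 (-0.81 ± 0.11), and the importer Slc39a1 at 10.03 and 9.64 (-0.39 ± 0.07).

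The glucocorticoid-responsive list (21 tested, 4 called higher, none lower, median 0.03) was split. Mt1, Mt2, Glul and Tsc22d3, an anti-inflammatory target of the glucocorticoid receptor (11.51, 12.79 and 11.99; 1.28 ± 0.03), were higher, and the kinase gene Sgk1 lay at 9.14 and 10.04 (0.89 ± 0.08). Other widely used targets did not follow. Fkbp5, a receptor chaperone, lay at 9.28 and 9.47 (0.19 ± 0.08), Klf15 at 8.93 and 8.24 (-0.69 ± 0.11), and Zbtb16 at 10.36 and 9.38 (-0.99 ± 0.07). Among genes of muscle atrophy (28 tested, median 0.28), 2 were higher and 2 lower. The ubiquitin ligase gene Trim63 was higher in both exercised libraries (10.75, 11.81 and 11.72; 1.06 ± 0.04), and its companion Fbxo32 lay at 11.65, 12.54 and 12.51 (0.90 ± 0.03). The growth arrest gene Gadd45a was higher (6.99, 8.32 and 8.24; 1.33 ± 0.15). Asb10, an adaptor of ubiquitin ligases, was lower (10.51, 9.42 and 10.43; -1.09 ± 0.07).

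Downstream of the ligases, neither the proteasome (33 tested, median 0.15) nor autophagy (29 tested, median 0.15) had a called member. The autophagy genes farthest above 0 were Gabarapl1 (10.25 and 11.05; 0.80 ± 0.05), Atg14 (7.07 and 7.85; 0.78 ± 0.16) and the cargo receptor gene Sqstm1 (11.33 and 12.07; 0.74 ± 0.04), and the one farthest below was Bnip3 (10.93 and 10.34; -0.59 ± 0.05).

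Heat shock genes were lower as a group, with 29 tested, 6 above 0, 6 called lower and none higher, and a median of -0.42. The called members were Hsp70 genes, J-domain co-chaperones and small heat shock proteins. Hspa1a, the stress-induced Hsp70, stood at 7.86, 5.29 and 8.48 (-2.57 ± 0.27), and its neighbour Hspa1l at 8.93, 7.48 and 8.56 (-1.45 ± 0.13). Reads may be split between Hspa1a and its near-identical copy Hspa1b, which lay at 5.33, 4.95 and 6.98. The J-domain co-chaperones Dnajb5 (11.98, 10.33 and 11.97; -1.65 ± 0.05) and Dnajb4 (11.18, 9.57 and 10.79; -1.61 ± 0.06) were lower as well. Of the small heat shock genes Hspb7 (11.06, 9.72 and 10.56; -1.34 ± 0.06) and Cryab (12.98, 11.83 and 13.35; -1.14 ± 0.03) were lower, Hspb6 lay at 14.11 and 13.69 (-0.42 ± 0.02), and Hspb1 at 11.93 and 12.19 (0.26 ± 0.03). The mitochondrial chaperone genes Hspd1 (-0.29 ± 0.04) and Hspe1 (0.42 ± 0.08) were not called. Cryab is known to be most plentiful in slow fibres, whose list had a median of -3.25 here, and the part of fibre mix in these values was not tested.

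Stress of the endoplasmic reticulum and the integrated stress response (20 tested, median -0.25) had a single called gene. Chac1, which degrades glutathione and is a target of Atf4, stood at 5.84, 8.55 and 7.03 (2.71 ± 0.20), while Atf4 itself lay at 12.33 and 12.45 and Ddit3 at 9.52 and 9.35. The lumenal chaperones Hspa5 (12.74 and 11.75; -0.99 ± 0.03) and Hsp90b1 (10.70 and 9.90; -0.81 ± 0.06) lay below the control. In the antioxidant list (30 tested, median 0.09) only Gclm, the modifier subunit of the first enzyme of glutathione synthesis, was called (6.58, 7.67 and 6.20; 1.09 ± 0.18), and not with a pseudocount of 16 (0.97). Of 17 targets of p53 (median 0.10), 2 were higher, Gadd45a and Eda2r, a receptor of the tumour necrosis factor family (5.77, 7.94 and 7.94; 2.17 ± 0.21). Cdkn1a (8.37 and 8.47) and Mdm2 (9.81 and 9.96), the classical targets, were not called.

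Immediate early genes, which respond within minutes to contraction, nerve input or stress, were divided. Of 31 tested 4 were higher and 4 lower, and the median was 0.08. The orphan nuclear receptors went separate ways. Nr4a3 was higher (6.02, 8.04 and 8.60; 2.02 ± 0.20), as was Nr4a2 (5.19, 6.72 and 6.50; 1.53 ± 0.28), whereas Nr4a1 was lower (9.08, 8.01 and 8.61; -1.07 ± 0.12). Klf10, induced by transforming growth factor beta, was higher (6.69 in control muscle and 7.66 in the SQH library; 1.31 ± 0.17). The AP-1 genes Fos (5.58 and 5.77) and Jun (11.36 and 11.65) and the early growth response gene Egr1 (7.67 and 7.75) were not called. Lower were Cyr61 (10.56, 6.50 and 10.93; -4.06 ± 0.17) and its relative Ctgf (10.66, 9.55 and 12.36; -1.11 ± 0.07), secreted matrix proteins induced by the YAP coactivator. Within the YAP and stretch list (14 tested, median -0.09), 4 were lower and 2 higher. Amotl1, a junction protein that binds YAP, was lower (14.03, 12.38 and 13.87; -1.65 ± 0.02), and Mustn1, a small nuclear protein of muscle and cartilage, was higher (8.45, 10.21 and 11.04; 1.77 ± 0.09). Ankrd1, the cardiac ankyrin repeat protein, was also higher (6.25, 7.36 and 8.87; 1.11 ± 0.20), opposite in direction to its relative Ankrd2, and at 0.97 with a pseudocount of 16.

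Growth and nutrient signalling differed at single genes. In the list of growth hormone, STAT5 and cytokine feedback (17 tested, median 0.14), the feedback inhibitor genes Cish (6.86, 8.98 and 6.26; 2.12 ± 0.15) and Socs2 (8.32, 9.39 and 8.63; 1.07 ± 0.10) were higher, both known targets of STAT5. Igf1, another target, lay at 9.65 and 9.79, and Igfbp3 was lower (7.70, 5.83 and 7.10; -1.86 ± 0.23). Of 29 insulin and AMPK genes (median -0.03), Tbc1d1, a Rab regulator that restrains glucose transporter movement and is most abundant in fast fibres, was higher (7.36, 9.25 and 8.66; 1.89 ± 0.13). Its relative Tbc1d4 lay at 9.12 and 9.15. The insulin receptor adaptors Grb14 (9.08, 7.06 and 8.16; -2.02 ± 0.15) and Grb10 (9.48, 8.44 and 9.34; -1.04 ± 0.10) were lower. The Grb10 call ended with centring (-0.97) and quantile normalization (-0.98).

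In the myostatin, activin and BMP list (18 tested, median 0.23) the receptor gene Acvr2b was higher (6.77, 8.07 and 7.33; 1.30 ± 0.17), with Mstn, its ligand, at 8.21, 8.80 and 7.27 (0.58 ± 0.11). Mss51, a mitochondrial protein gene that myostatin signalling raises, was higher as well (10.95, 12.45 and 9.30; 1.50 ± 0.04). Among secreted factors of muscle (20 tested, median -0.37), 2 were higher and 4 lower. Ctf1, which encodes cardiotrophin, was lower (6.59, 4.57 and 6.58; -2.02 ± 0.35), as were the vessel-stabilising Angpt1 (10.49, 9.07 and 9.81; -1.41 ± 0.08), the irisin precursor gene Fndc5 (11.91, 10.84 and 11.47; -1.07 ± 0.04) and Ostn, encoding musclin (7.01, 5.95 and 6.87; -1.06 ± 0.23). Quantile normalization ended the Fndc5 call (-0.98), a pseudocount of 16 the Ostn call (-0.90), and centring ended both, at -0.999 and -0.99. Cntf (5.74, 7.49 and 5.32; 1.75 ± 0.22) and Il15 (5.55, 6.79 and 5.40; 1.24 ± 0.25) were higher. Cntf lies over the exons of Zfp91 on the same strand, and Il15 stood just inside the expression minimum. Angpt2, the antagonist of Angpt1, was higher (5.74, 6.80 and 5.71; 1.06 ± 0.24), in a hypoxia and angiogenesis list of 16 genes with a median of -0.09. A pseudocount of 16 ended the Angpt2 call (0.88). Vegfa lay at 11.63 and 11.27.

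Transcription factors of fibre type and genes of the nerve contact had calls in both directions, beside 8.29% of all tested rows called in either direction. Among myogenic and MEF2 factors (27 tested, median -0.03), Prox1, a factor of slow fibres, was lower (6.28, 4.64 and 6.73; -1.64 ± 0.35), as was Rcan1, a feedback inhibitor and target of calcineurin (11.09, 10.06 and 11.45; -1.02 ± 0.06). The Rcan1 call ended with centring (-0.95) and quantile normalization (-0.93). Nfatc1, the calcineurin-driven factor itself, was higher (8.42, 9.48 and 9.47; 1.05 ± 0.10). Sox6, a repressor of slow genes, lay at 10.64 and 10.98 (0.34 ± 0.05), and Mef2c at 14.85 and 14.27 (-0.59 ± 0.01). Of 16 genes of denervation and the neuromuscular junction (median -0.39), the acetylcholine receptor gene Chrna1 (10.17, 8.66 and 10.51; -1.51 ± 0.09) and Dach2 (6.79 in control muscle and 6.29 in the SQH library; -1.79 ± 0.31) were lower, Runx1 (4.37, 6.49 and 6.69; 2.12 ± 0.35) and Gadd45a higher. Myog, which drives the receptor gene, lay at 9.11, 8.24 and 9.83 (-0.87 ± 0.11). In the clock (22 tested, median -0.24), Dbp (8.95, 7.03 and 8.10; -1.92 ± 0.15) and Nr1d1 (8.97, 7.59 and 8.65; -1.39 ± 0.13) were lower. Arntl, the activator that opposes Nr1d1 in phase, lay at 6.58 and 5.64 (-0.94 ± 0.26) and Per2 at 7.59 and 7.27. The hour of dissection is not in the labels, so its part was not tested.

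Signs of inflammation were close to the detection limit. Of 26 genes of inflammation and chemokines 5 passed the minimum and none was called, and 10 were listed at 0 in control muscle and 9 in the exercise control. The list median of -0.72 rests on those 5 genes, among them the adhesion molecule gene Vcam1 (7.46 and 6.52; -0.95 ± 0.20) and Cxcl12 (10.25 and 9.52; -0.72 ± 0.07). Of 18 myeloid markers only C1qa passed (7.51 and 7.60), and no lymphocyte marker did. The summed linear level of the lymphocyte list was 6.57 in control muscle and 3.57 in the exercise control. Of 42 interferon-stimulated genes 13 were tested. Ifit3 was higher (5.30, 7.49 and 6.59; 2.19 ± 0.25) and Gbp6 lower (8.13, 6.76 and 8.90; -1.37 ± 0.17), so this list had no common direction (median -0.25).

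Of the collagens 17 were tested (median -0.11) and 2 called. The fibrillar genes parted: Col1a1 was higher (10.62, 11.90 and 11.27; 1.28 ± 0.04), Col1a2 lay at 11.85, 12.59 and 12.11 (0.74 ± 0.03), and Col3a1 at 10.43, 9.72 and 9.99 (-0.71 ± 0.07). The log2 ratio of Col1a1 to Col3a1 was 0.20 in control muscle, 2.19 in the exercise control and 1.27 in the SQH library. Among 30 genes that crosslink, cut or coat matrix (median -0.15), Lox, which crosslinks collagen (6.33, 7.95 and 7.87; 1.62 ± 0.18), and the protease gene Adamts20 (6.14, 7.76 and 5.67; 1.62 ± 0.20) were higher.

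Markers of cells other than muscle fibres were read beside these results. All 8 tested Schwann cell and nerve markers lay above 0 and 6 were called higher (median 1.13). The summed linear level of the whole list of 22 was 1640 in control muscle, 5050 in the exercise control and 1730 in the SQH library. Pmp22, a myelin protein gene, stood at 8.65, 9.66 and 8.65 (1.01 ± 0.09), and Pllp, plasmolipin, at 5.69, 6.86 and 5.68 (1.18 ± 0.24), and both calls ended with a pseudocount of 16 (0.99 and 0.97). Drp2, a dystrophin relative of myelinating cells, lay at 6.85, 7.54 and 6.48 (0.69 ± 0.17). Under the minimum, periaxin (Prx) lay at 5.16, 6.87 and 5.24, and the neurofilament gene Nefl was listed at 0 in every library. The exercise control was thus the highest of the libraries in myelin genes. Tendon markers were higher as a group too (8 tested, 4 called higher, 1 lower, median 1.19), with summed levels of 1340, 2430 and 2320, so here both exercised libraries lay above the control. Fmod, a collagen-binding proteoglycan, stood at 6.54, 8.03 and 7.73 (1.50 ± 0.17), and Col11a1 at 6.78, 8.17 and 7.85 (1.39 ± 0.16). The tendon marker called lower was the transcription factor gene Scx (-1.18). The part of these cells in the matrix and slow-fibre values was not tested.

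**Figure D5:**
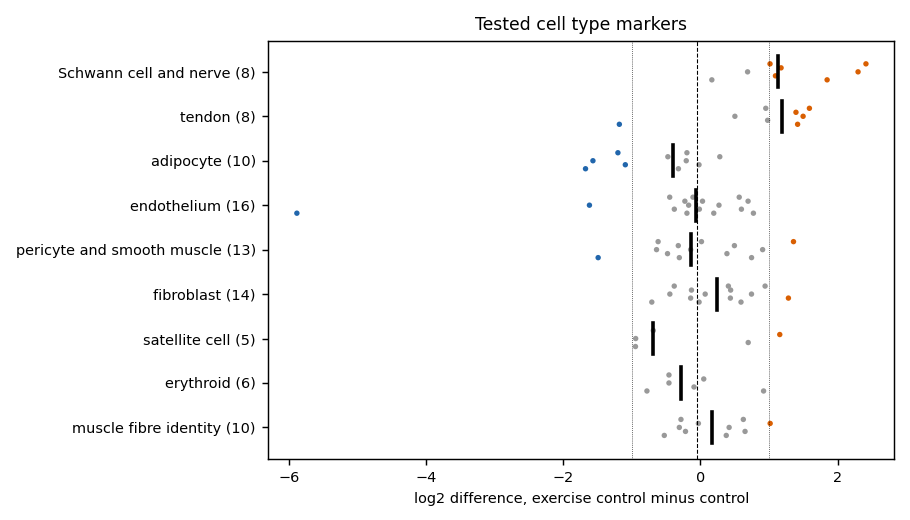
Log2 difference of each tested cell type marker, with the number of tested markers in parentheses (orange called higher, blue lower, grey not called; black line the list median, dashed line the median of all tested rows). Nerve and tendon markers lie to the right and adipocyte markers to the left, while markers of vessel wall, fibroblasts and muscle fibres lie around 0.

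Adipocyte markers were lower as a group (10 tested, 1 above 0, 4 called lower, median -0.40). Dgat2, the last enzyme of triglyceride synthesis, stood at 9.67, 8.57 and 9.89 (-1.09 ± 0.09). The 6 markers not called ran from -0.475 (Cebpa) to 0.28 (Plin4, the only marker above 0). Among them Cfd (-0.02), Scd1 (-0.20) and Fabp4 (-0.21) differed little. Adiponectin (Adipoq), under the minimum, lay at 6.08, 3.83 and 6.09, and Cidec, a fat droplet protein, was listed at 0 in the exercise control against 4.08 and 5.09. Leptin (Lep) was listed at 0 in all 3 libraries. Endothelial markers had a median of -0.06 (16 tested, 7 above 0, 2 called lower). The called markers were Sox18, a factor of vessel development, at 6.19, 0.31 and 7.52, and Robo4, a receptor of vessel stability, at 7.04, 5.42 and 6.39 (-1.62 ± 0.27). The Sox18 level in the exercise control rests on about 1 read. Markers not called lay on both sides of the control. Above it were Pecam1 at 9.21 and 9.48, Cdh5 at 8.68 and 8.88 and the receptor gene Kdr at 9.15 and 9.92 (0.77 ± 0.08). Below it were Rgcc (-0.45), Flt1 (-0.38) and Esam (-0.23), among others. Fibroblast markers (14 tested, 8 above 0 and 6 below, 1 called higher, median 0.24) included Pdgfra at 6.35 and 6.79 and Dcn at 11.66 and 12.07. Among those below 0 were Col3a1 (-0.71), Fbn1 (-0.45) and Cd34 (-0.38). The pericyte marker Rgs5 was lower in both exercised libraries (12.50, 11.01 and 10.88; -1.49 ± 0.04), while Pdgfrb, a second pericyte marker, lay at 8.19 and 8.93 (0.74 ± 0.11). Among 5 tested satellite cell markers Chodl was higher (9.20, 10.35 and 9.67; 1.16 ± 0.07), and Pax7, which defines these stem cells, lay at 6.74 and 5.80 (-0.94 ± 0.25). Erythroid genes were not called (6 tested, median -0.28).

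The protein synthesis machinery was level as a whole, and its calls stand beside 5.33% of all tested rows called lower and 2.95% called higher. Cytosolic ribosomal proteins (67 tested, median -0.08) had 3 called lower and none higher, and mitochondrial ribosomal proteins (73 tested, median -0.01) 4 lower and none higher. Mrps28 stood at 8.16, 5.54 and 8.86 (-2.62 ± 0.24), Rpl21 at 7.17, 5.80 and 7.36 (-1.36 ± 0.24), and Rpl26 at 8.85, 7.53 and 9.19 (-1.33 ± 0.13). In a 3' library such a value covers only the transcript end that reads reach.

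Several of the largest remaining differences belonged to none of the lists. Lower in the exercise control were Cyfip2, an actin regulator (9.30, 5.87 and 9.38; -3.44 ± 0.21), Pcp4l1, a small relative of Pcp4 (10.31, 7.11 and 9.67; -3.20 ± 0.14), the natriuretic peptide clearance receptor Npr3 (9.90, 6.91 and 9.80; -2.99 ± 0.15) and the scaffold gene Homer2 (12.78, 9.94 and 11.93; -2.84 ± 0.05). For all 4 the SQH level lay nearer the control than the exercise control. Snrpf, a core protein of the spliceosome, was lower (8.37, 5.77 and 8.19; -2.59 ± 0.23) together with Ccdc38 (8.30 and 5.98), with which it shares 567 exonic bases on the other strand. Higher were Cdh1, the epithelial adhesion gene (5.04, 7.67 and 5.62; 2.64 ± 0.27), Sorbs3, encoding the focal adhesion protein vinexin (5.79, 7.79 and 6.56), Zfp503 (6.52, 8.36 and 8.46; 1.84 ± 0.17) and Tnfrsf19 (7.34, 9.03 and 7.80; 1.69 ± 0.13). The mitochondrial folate enzyme gene Aldh1l2 was higher (5.04, 6.85 and 6.03; 1.81 ± 0.28). Zfp503 and Mustn1 were also high in the SQH library, while Cdh1, Cish and Cntf were not. Prss22, a serine protease gene, was listed at 0 in control muscle and at 11.11 in the exercise control, and Tecrl at 7.76 and 0, and no fold was computed for either.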

How the data were processed

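The 3 files, 1 a library, give 24481 gene rows as log2 values made by the authors. Neither header nor label states their scale. Taken to the linear scale, small values (at most 9) bunch at multiples of a step: 0.939 for control, 1.188 for exercise control and 0.766 for SQH, with 100%, 95.7% and 84.4% of them no more than 0.2 step away. Linear sums divided by the step gave the approximate reads. As the step is below 1 for control and SQH, a row listed at 0 in those libraries may hold a single read. Per the labels' protocols, 500 ng of total RNA from Trizol extraction went into QuantSeq 3' libraries. Bowtie2, edgeR and the build mm10 are named, without versions, in the submitters' processing notes. How reads were counted, and on which annotation or strand, is not stated there.

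Differences, list medians and shares were computed with Python 3.11.15, numpy 2.4.6, pandas 2.3.3 and scipy 1.17.1. The calling step was checked on simulated counts. These held counting error only, and every planted change was larger than 2-fold. The check therefore says nothing of variation between animals or libraries, or of changes near the threshold. A list is described as higher or lower as a group only where its median lay at least 0.3 from the median of all tested rows with at least 3 in 4 of its tested members on that side. The 55 lists hold 1324 genes, of which 1319 were found and 1034 tested. Members and lists were chosen with earlier results of these data known. Genes to be named were list members (up to 8 called and 4 others per list), the 25 highest and 25 lowest called rows with a counting standard error of at most 0.3, the 10 most abundant rows and overlapping genes. Further members of the slow, metabolic and other lists, Prss22 and Tecrl were named once their values were known. Some items are not reported here. Exonic overlaps come from GENCODE M21 for GRCm38, which holds 95.7% of the symbols. Groups come from the sample titles. The alternatives were centring, quantile normalization, other expression minimums, a pseudocount of 16 and a stricter call rule.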

Additional observations from a re-analysis of the deposited data

How the results depend on the processing

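No paired analysis was possible because each group has 1 library and the labels give no replicate numbers, and no library can be left out for the same reason. The 232 higher and 419 lower rows became 293 and 348 after centring, 287 and 353 after quantile normalization, 242 and 404 with the minimum set on the 2 compared libraries, and 168 and 320 with a pseudocount of 16. The share of higher rows among the calls moved from 35.6% to 45.7% with centring, and 44.8% with quantile normalization. With no minimum 1113 rows were higher and 1536 lower, among more rows of few reads. With the upper quartile as minimum, fewer rows were tested and 75 and 158 were called. Where the 95% counting interval had to clear the threshold as well, 98 and 194 were called, all of them among the original calls. No called gene among those checked changed sign, nor did the median of any list described as higher or lower as a group. Smaller values could change sign: Tnnc2 went from 0.172 to -0.298 with quantile normalization. Under quantile normalization the slow-fibre median was -2.88 and the fast-fibre median 0.39. With no minimum the glycogen median was 0.29 and the inflammation median -0.17. The exercise control is the shallowest library, which limits genes under the minimum most.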
